A study of Mus musculus with 4 samples.

Results

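The chemokine ligand genes Ccl22, Ccl17, Ccl3, Ccl4, Cxcl10 and Cxcl1 were followed in activated mouse B cells labelled Aff3-/-. All gene probes whose accession is a RefSeq transcript of one of these symbols were taken, which gave 6 probes for 6 genes, 1 spot each, among 20633 genes and unnamed transcripts tested. The series compared Aff3-/- with Aff3+/- splenic B cells, with 2 samples of each genotype and 1 single-colour Agilent array per sample. Cells negative for CD43, a surface protein that resting B-2 cells lack, were stimulated with LPS (10 ug/mL), a bacterial ligand of TLR4, plus IL-4 (10 ng/mL), and both genotypes received this for 3 days. The Aff3+/- controls still carry 1 inactive allele, no wild-type or unstimulated sample was analysed here, and the labels say neither how the allele was made nor how old the mice were. Whether replicates are separate mice is not stated either, and p-values therefore cover only sample-to-sample spread, which may be technical.

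Chemokines are small secreted proteins that draw leukocytes along a concentration gradient through G protein-coupled receptors. CC chemokines carry their first conserved cysteines side by side, and in CXC chemokines 1 residue parts them. Activated B cells release Ccl3, Ccl4, Ccl17 and Ccl22, which attract T cells, and LPS and IL-4 reach such genes mainly through NF-kB and STAT6. Ccl22, Cx3cl1 and Ccl17 lie in 1 cluster, Ccl3 next to Ccl4, and Cxcl10 between Cxcl9 and Cxcl11.

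Promoter sequences from RefSeq (GRCm38.p6) were found for 5 of the 6 genes. The 250 bases before the start sites of Cxcl10 (chr5:92348890-92349139, minus strand) and Cxcl1 (chr5:90890995-90891244, plus strand) are shown because the 2 genes varied together across the arrays. Capitals mark matches to the NF-kB consensus, to the interferon-stimulated response element (ISRE, GAAA, any 2 bases and GAAA) and to AP-1 (TGANTCA).
Cxcl10: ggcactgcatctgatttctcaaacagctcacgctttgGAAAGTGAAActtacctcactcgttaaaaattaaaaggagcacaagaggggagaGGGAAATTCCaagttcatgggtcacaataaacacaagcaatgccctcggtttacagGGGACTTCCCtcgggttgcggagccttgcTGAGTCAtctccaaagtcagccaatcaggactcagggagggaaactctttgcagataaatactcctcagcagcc
Cxcl1: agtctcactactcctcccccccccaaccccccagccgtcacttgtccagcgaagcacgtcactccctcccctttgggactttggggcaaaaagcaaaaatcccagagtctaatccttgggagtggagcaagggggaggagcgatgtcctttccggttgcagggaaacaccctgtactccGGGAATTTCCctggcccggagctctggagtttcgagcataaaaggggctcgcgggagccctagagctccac
Cxcl10 held 2 NF-kB matches, GGGAAATTCC at -159 to -150 and GGGACTTCCC at -103 to -94 from the start site, an ISRE match GAAAGTGAAA at -213 to -204 and an AP-1 match TGAGTCA at -74 to -68. Cxcl1 held 1 NF-kB match, GGGAATTTCC at -71 to -62, which also reads as a match on the other strand shifted by 1 base and was taken once. Both strands were searched, and among 32841 promoters of this length 3.90% held an NF-kB match, 2.98% an ISRE match, 6.75% an AP-1 match and 0.241% at least 2 NF-kB matches. The STAT6 motif (TTC, any 4 bases and GAA), found in 5.85% of promoters, matched in Ccl17 at -154 to -145. That window (chr8:94810203-94810452, plus strand) lies inside the RefSeq span of Ccl17 (94809380 to 94812038). It therefore precedes a start site other than the outermost. Ccl22 and Ccl3 had no match to these letters in this window. Matches of different motifs do not overlap in either sequence. A match describes the letters only and no binding was measured.

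**Figure D1:**
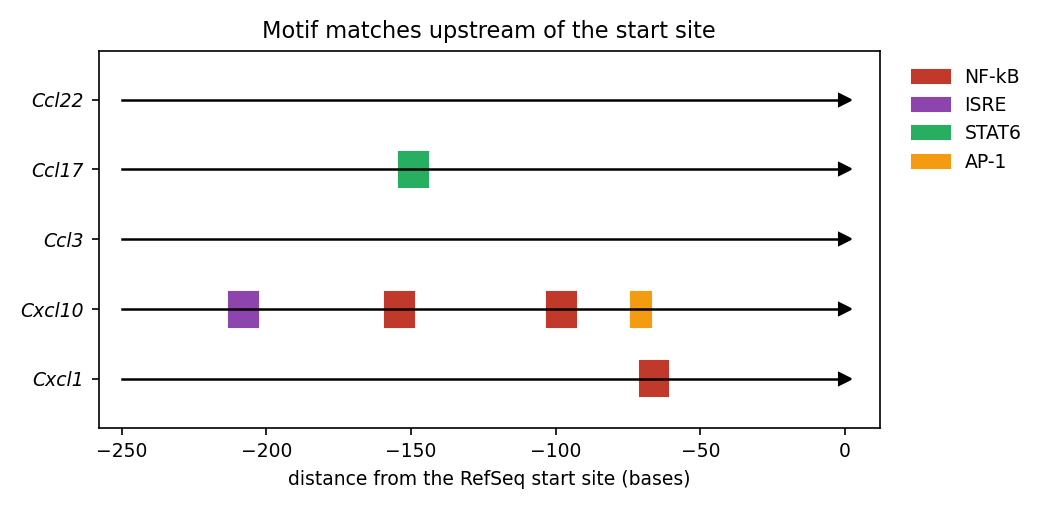
Matches to 4 motifs in the 250 bases before the start site of 5 chemokine ligand genes, with the distance from the RefSeq start site in bases on the x axis and 1 gene per row. Cxcl10 has 4 matches, Cxcl1 and Ccl17 have 1 each, and Ccl22 and Ccl3 have none.

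All 6 genes were well above background on all 4 arrays, though Ccl17 and, on 2 arrays, Cxcl1 lay close to the detection limit. The 4 arrays each detected 24942 to 25862 of 39429 probes, and saturation touched 0 gene spots. All 7 B cell markers, among them Cd79a, Cd79b, Ms4a1, Pax5, Blnk and Cd22, were well above background on every array. The Aff3 transcript was not analysed here, so each direction rests on the labels. Levels are log2 signal relative to the array's own 75th percentile unless given as processed signal in intensity units. Levels of different probes are not compared, except among cell type markers. In RNA from a whole culture, fewer cells that make a chemokine and less RNA per cell cannot be told apart.

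None of the 6 chemokine genes passed the test between the genotypes, and the 95% interval of each difference included 0. Of these genes 5 were nominally higher and 1 lower in Aff3-/- cells, with a median log2 difference of 0.18, against a median of -0.01 over all features, of which 45.7% were higher. The median of the 6 turned to -0.08 without Aff3+/- replicate 1. None passed a Benjamini-Hochberg adjusted p of 0.05 in limma (adjusted p = 1.00 for each). Over all features the share that passed was 0%, with a smallest adjusted p of 0.736 and 421 features at an unadjusted p under 0.05. For a single gene, Ccl22, the genotypes did not overlap, with the Aff3-/- arrays higher. Over all features 8.45% did this, and 11.1% lay the other way, so that 19.6% showed no overlap. The 1 of 6 among the chemokine genes is near that background.

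Ccl22 and Ccl17 are the ligands of Ccr4, a receptor of Th2 and regulatory T cells. Ccl22 had processed signals of 239.3 and 155.8 in Aff3-/- replicates 1 and 2, against 148.4 and 160.4 in Aff3+/- replicates 1 and 2. The array of Aff3-/- replicate 1 stood above the other 3. On the normalized scale Ccl22 averaged -2.75 ± 0.42 in Aff3-/- cells and -3.09 ± 0.02 in Aff3+/- cells (SD, n = 2 each), a log2 difference of 0.33 ± 0.22 (SE, 95% interval -0.25 to 0.92, limma unadjusted p = 0.199). The lower Aff3-/- array lay only 0.03 above the higher Aff3+/- array on the log2 scale, less than the spread of repeated spots of a probe with a signal above 100 on one array, whose median SD was 0.0445 to 0.0565. With normexp background correction the genotypes overlapped, as did the processed signals before scaling. The difference was 0.04 when Aff3-/- replicate 1 was left out and 0.63 when Aff3-/- replicate 2 was.

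Ccl17 had 16.1 and 12.1 intensity units in Aff3-/- replicates 1 and 2, against 11.5 and 20.1 in Aff3+/- replicates 1 and 2. The highest and the lowest array both belonged to Aff3+/-, and the genotypes overlapped. These signals were 1.65 to 3.21 times the lowest signal well above background on the same array, and the scanner software gave them an error of 16.2% to 25.0%. The log2 difference was -0.11 ± 0.29 (SE, 95% interval -0.88 to 0.66, limma unadjusted p = 0.725). It turned to 0.08 without Aff3-/- replicate 2 and to 0.25 without Aff3+/- replicate 2. Ccl22 and Ccl17, although in 1 cluster, did not share an order of arrays: Aff3+/- replicate 2 was the highest array for Ccl17 and the third for Ccl22 by normalized level.

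Ccl3 and Ccl4, the macrophage inflammatory proteins 1 alpha and 1 beta, attract T cells and monocytes, and Ccl3 binds Ccr1. For Ccl3 the processed signals were 655.0 and 670.6 in Aff3-/- cells, against 651.5 and 542.6 in Aff3+/- cells (replicates 1 and 2). Both Aff3-/- arrays and Aff3+/- replicate 1 lay together, Aff3+/- replicate 2 was lower, and the genotypes overlapped. Ccl3 averaged -0.97 ± 0.05 in Aff3-/- cells and -1.14 ± 0.25 in Aff3+/- cells (SD, n = 2 each). Its log2 difference of 0.17 ± 0.16 (SE, 95% interval -0.26 to 0.59, limma unadjusted p = 0.349) turned to -0.0071 without Aff3+/- replicate 2.

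Ccl4 had 386.0 and 477.1 intensity units in Aff3-/- replicates 1 and 2, against 345.2 and 418.7 in Aff3+/- replicates 1 and 2. Its genotypes overlapped, although within each replicate number the Aff3-/- array was the higher one, by 0.11 for number 1 and 0.26 for number 2 on the log2 scale. Over the genotypes Ccl4 averaged -1.60 ± 0.24 in Aff3-/- cells and -1.79 ± 0.14 in Aff3+/- cells (SD, n = 2 each). The log2 difference was 0.19 ± 0.17 (SE, 95% interval -0.26 to 0.63, limma unadjusted p = 0.326). Leaving out Aff3-/- replicate 2 gave 0.02, and leaving out Aff3-/- replicate 1 gave 0.35. The intervals of Ccl3 and Ccl4 were the narrowest of the 6. With normexp background correction neither gene overlapped between the genotypes.

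Cxcl10, an interferon-induced ligand of Cxcr3, differed more between the 2 arrays of a genotype than between genotypes. It had 2536 and 8611 intensity units in Aff3-/- replicates 1 and 2, against 3283 and 5790 in Aff3+/- replicates 1 and 2. Both arrays labelled replicate 2 were brighter than both labelled replicate 1, and the Aff3-/- arrays were the lowest and the highest of the 4. Cxcl10 averaged 1.84 ± 1.27 in Aff3-/- cells and 1.73 ± 0.52 in Aff3+/- cells (SD, n = 2 each), a log2 difference of 0.11 ± 0.65 (SE, 95% interval -1.61 to 1.83, limma unadjusted p = 0.872). Within number 1 the genotype difference was -0.42 and within number 2 it was 0.64, so that the sign depends on the pair of arrays. Leaving out Aff3-/- replicate 1 gave 1.01 and leaving out Aff3-/- replicate 2 gave -0.79. The same for Aff3+/- gave -0.26 (replicate 1 left out) and 0.48 (replicate 2 left out).

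Cxcl1, which attracts neutrophils through Cxcr2, showed the same split on a larger scale. It had 9.74 and 75.4 intensity units in Aff3-/- replicates 1 and 2, against 11.7 and 45.6 in Aff3+/- replicates 1 and 2. Both arrays labelled replicate 1 lay at 1.63 and 1.68 times the lowest signal well above background, and those labelled replicate 2 at 12.2 times it for Aff3-/- and 7.30 times for Aff3+/-. Cxcl1 averaged -5.59 ± 2.11 in Aff3-/- cells and -5.83 ± 1.33 in Aff3+/- cells (SD, n = 2 each). The log2 difference was 0.24 ± 1.17 (SE, 95% interval -2.85 to 3.33, limma unadjusted p = 0.845), and within numbers 1 and 2 it was -0.31 and 0.80. Leaving out 1 array moved it to 1.73 (Aff3-/- replicate 1), -1.25 (Aff3-/- replicate 2), -0.70 (Aff3+/- replicate 1) or 1.18 (Aff3+/- replicate 2).

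**Figure D2:**
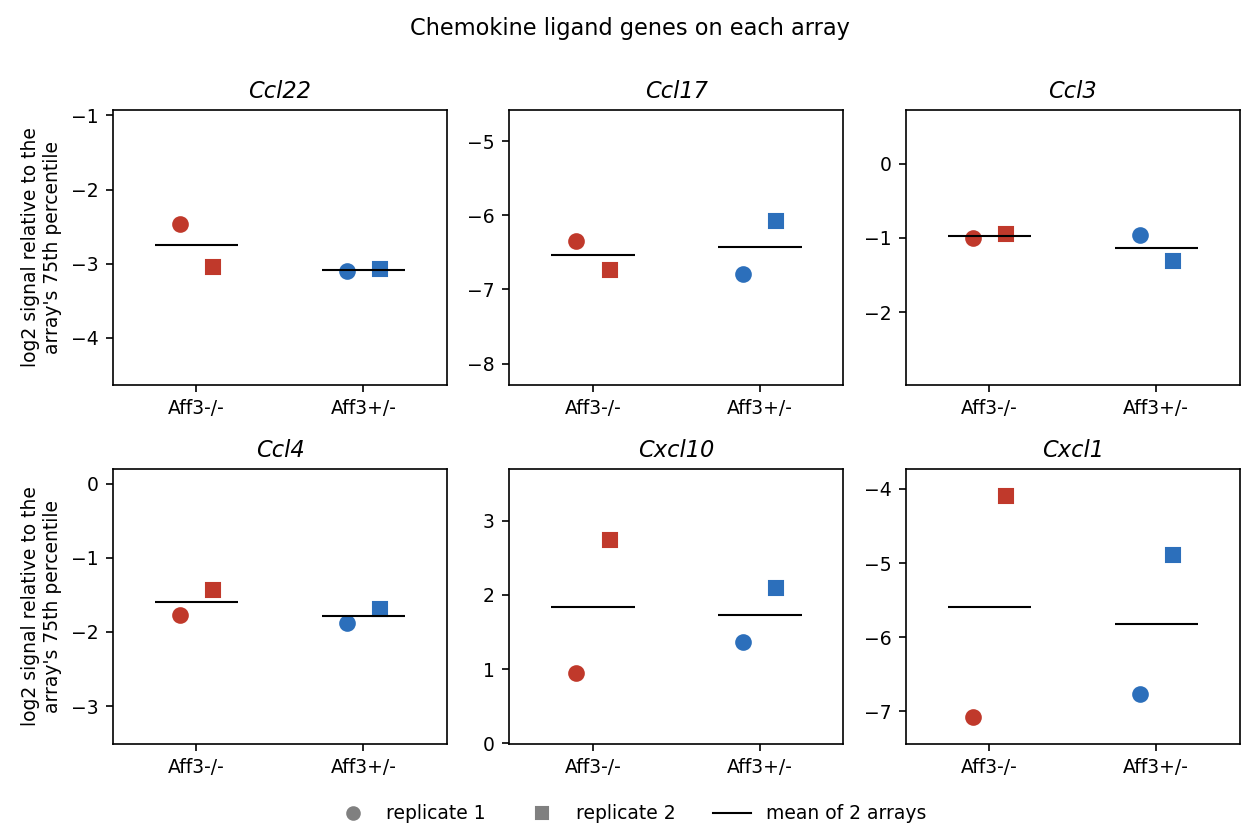
Normalized level of the 6 chemokine ligand genes on each array, as log2 signal relative to the array's 75th percentile, in Aff3-/- (red, left) and Aff3+/- cells (blue, right), with circles for replicate 1, squares for replicate 2 and lines for the mean of 2 arrays. The y axes all span the same number of log2 units. The arrays of a genotype lie 1.80 and 0.73 apart for Cxcl10 and 2.99 and 1.88 apart for Cxcl1 (Aff3-/- and Aff3+/-), and the genotype means lie close together.

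The difference between replicate 2 and replicate 1 was therefore set out for all 6 genes in both genotypes. The labels give the 2 genotypes the same numbers but do not say that a number marks a shared day or culture, and all values are descriptions. Cxcl1 was 7.92-fold brighter on Aff3-/- replicate 2 than on Aff3-/- replicate 1, and 3.67-fold brighter on Aff3+/- replicate 2 than on Aff3+/- replicate 1. For Cxcl10 these folds were 3.47 in Aff3-/- cells and 1.66 in Aff3+/- cells. In all, 23 features (0.111% of those tested), Cxcl1 among them, were at least 1 (log2) higher on replicate 2 in both genotypes, and 29 (0.141%), none of the 6 genes among them, were at least 1 lower. No other feature was at least as high as Cxcl1 in both genotypes, and 16 features were at least as high as Cxcl10 in both. The median SD of repeated spots of a probe at signals of 9 to 90 was 0.143 to 0.156 on the log2 scale. The scanner software gave Cxcl1 an error of 36.2% on Aff3-/- replicate 1 and 28.1% on Aff3+/- replicate 1. For replicate 2 this error was 10.2% and 10.5%. The Cxcl1 folds thus rest on imprecise replicate 1 signals.

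Ccl4 was also brighter on replicate 2 in both genotypes, by 0.34 in Aff3-/- cells and 0.19 in Aff3+/- cells (log2). A difference above 0 in both genotypes was found for 3 of the 6 chemokine genes, against 35.6% of all features, and a difference below 0 in both for 0 of the 6, against 39.8%. Ccl22 (-0.59 in Aff3-/- cells and 0.03 in Aff3+/- cells), Ccl17 (-0.38 and 0.72) and Ccl3 (0.07 and -0.35) differed in sign between the genotypes.

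**Figure D3:**
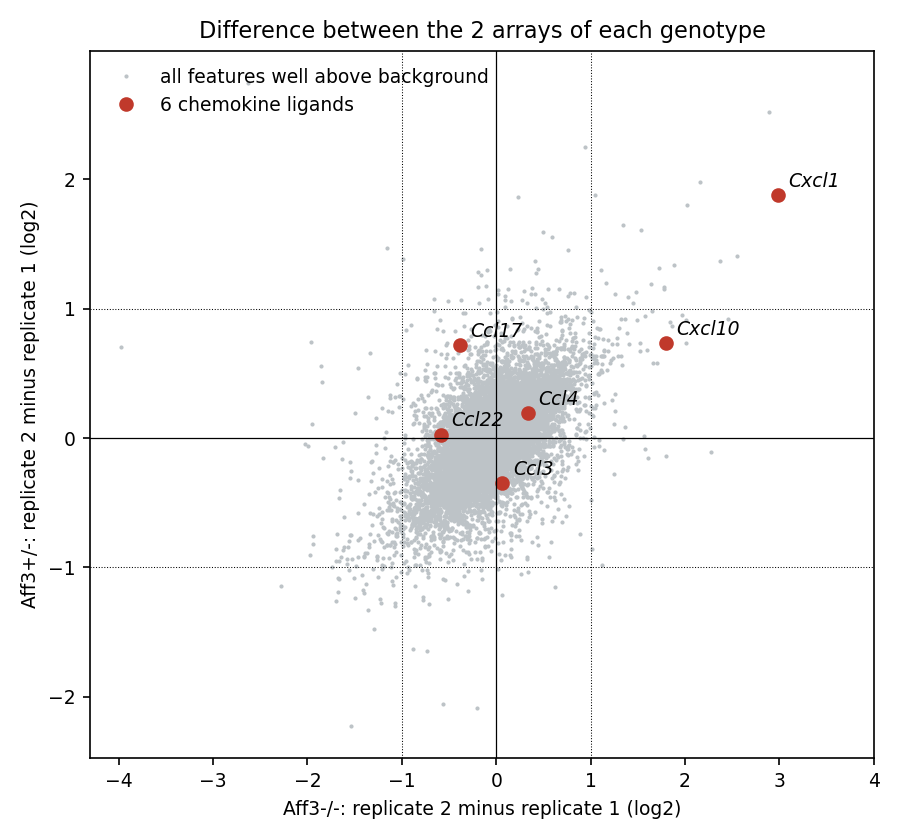
Log2 difference of replicate 2 minus replicate 1 in Aff3-/- cells (x axis) and in Aff3+/- cells (y axis) for all features well above background on all 4 arrays (grey) and the 6 chemokine ligand genes (red), with dotted lines at 1 and -1. Cxcl1 (2.99 and 1.88) and Cxcl10 (1.80 and 0.73) lie outside the cloud, and the other 4 genes lie within or at its edge.

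The interferon beta gene Ifnb1, whose product acts on Cxcl10 through the interferon receptor, followed the same numbers. Its processed signal was 2.80 and 36.3 in Aff3-/- replicates 1 and 2, against 5.28 and 26.5 in Aff3+/- replicates 1 and 2. It was well above background on 2 arrays, the replicate 2 array of each genotype, and so entered no test. The Ifnb1 promoter window holds 1 NF-kB match, at -116 to -107, and its letters GGGAAATTCC are those of the farther Cxcl10 match. The interferon list held 13 genes with Ifnb1, of which 11 were tested, and 1 of these was higher and 7 were lower on replicate 2 in both genotypes. For Irf3, a factor upstream of Ifnb1, replicate 2 minus replicate 1 was 0.19 in Aff3-/- cells and 0.16 in Aff3+/- cells (log2).

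By root-mean-square difference of the centred log2 values over the 4 arrays, Fos (0.0764) and Aebp1 (0.0773) were nearest to Cxcl10 among 13412 named genes well above background. Fos encodes an AP-1 subunit, and its level was -4.67 and -3.07 on Aff3-/- replicates 1 and 2, against -4.36 and -3.68 on Aff3+/- replicates 1 and 2. Nearest to Cxcl1 were Ptgs2 (0.282), the inducible prostaglandin synthase, and Me1 (0.295), a malic enzyme. Ptgs2 lay at -5.57 and -3.20 in Aff3-/- cells, against -5.36 and -3.99 in Aff3+/- cells. These genes were picked for likeness over 4 arrays, so the likeness itself is no test.

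**Figure D4:**
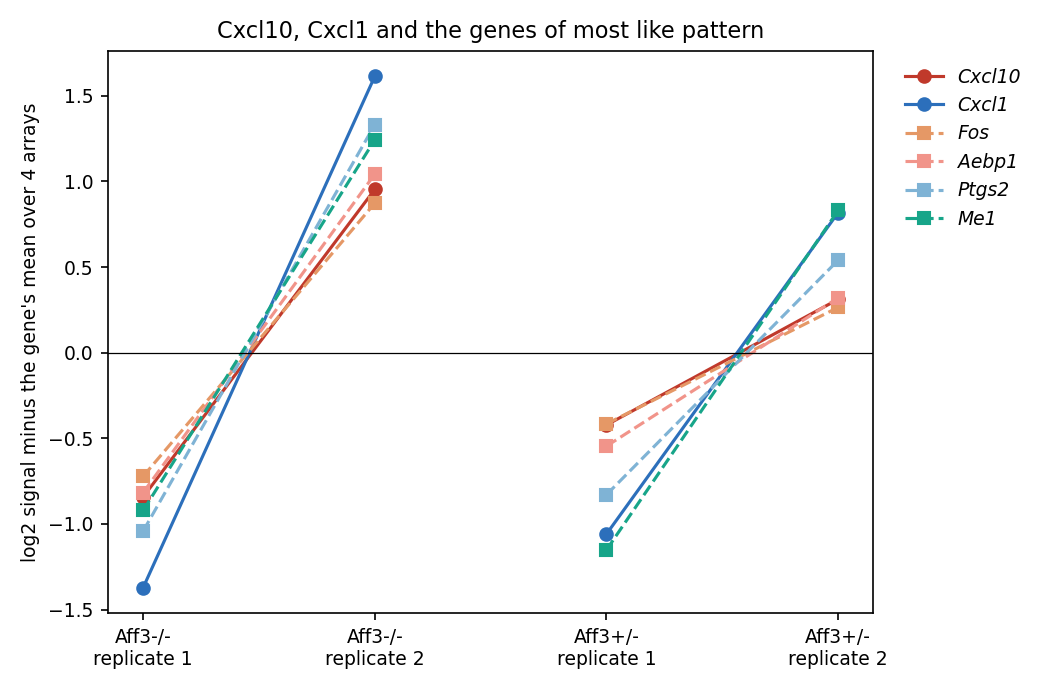
Log2 signal minus the gene's own mean over the 4 arrays for Cxcl10 and Cxcl1 (circles, solid lines) and the 2 genes nearest to each (squares, dashed lines), with lines joining the 2 arrays of a genotype. All 6 genes lie above their mean on both replicate 2 arrays and below it on both replicate 1 arrays.

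Cell type markers were read on the same arrays, and their part in these values was not tested. The 7 B cell markers summed to 334995 and 277312 in Aff3-/- replicates 1 and 2, against 331105 and 296776 in Aff3+/- replicates 1 and 2, on a scale that sets each array's 75th percentile to 1000, and 6 of the 7 were lower on replicate 2 in both genotypes. Of 11 macrophage and monocyte markers 5 were tested, and the summed signal of the list on this scale was 7929 and 7233 in Aff3-/- replicates 1 and 2, against 8692 and 7509 in Aff3+/- replicates 1 and 2. Most of this sum came from the Itgam probe of highest signal, at a mean level of 2.89. The gene's other probes lay at -5.03 and -5.39. Single markers went both ways on the replicate numbers: C1qb was 0.05 higher on replicate 2 in Aff3-/- cells and 0.27 higher in Aff3+/- cells (log2), Cd14 differed by -0.37 and 1.07, and Csf1r by -0.49 and -0.44. Lyz2, Fcgr1, Mertk, C1qa and C1qc were not well above background on any array. The neutrophil list summed to 556.2 and 589.7 in Aff3-/- cells, against 465.6 and 914.7 in Aff3+/- cells, most of it from the Elane probe. Camp, the other neutrophil marker tested, differed by -0.31 in Aff3-/- cells and -0.21 in Aff3+/- cells (log2, replicate 2 minus replicate 1), with S100a8 and S100a9 not well above background on any array. For the dendritic cell list the sums were 93959 and 89499 in Aff3-/- cells, against 103115 and 93311 in Aff3+/- cells. Most of this came from the Siglech probe of highest signal, and the other Siglech probe did not pass the filter. Itgax was not well above background on any array. Of 5 mast cell and basophil markers 0 passed the filter, and their sums were 10.5 and 7.25 in Aff3-/- cells, against 8.59 and 7.60 in Aff3+/- cells. T cell markers summed to 12955 and 11210 in Aff3-/- cells, against 14894 and 12754 in Aff3+/- cells. Most of this came from Lck, Cd2 and the Cd4 probe of highest signal, and the other Cd4 probe was far dimmer. Cd3e and Cd3d, well above background on every array, added little to it, and Cd3g was well above background on none. NK cell markers summed to 2333 and 1910 in Aff3-/- cells, against 2334 and 2158 in Aff3+/- cells, most of it from Nkg7 and Prf1. Ncr1, Klrb1c and Klrk1 were not well above background on any array. The platelet list, which holds Pf4, summed to 30.5 and 23.9 in Aff3-/- cells, against 21.0 and 27.7 in Aff3+/- cells. The stromal and endothelial list summed to 406.8 and 339.0, against 468.0 and 387.1, most of it from the Pecam1 probe. In that list Col1a2, Cdh5 and Acta2 were also well above background on every array, and Col1a1, Col3a1 and Pdgfra on none.

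Of the 9 receptors listed for these ligands, 5 were tested and none passed in limma (adjusted p = 1.00 for each), 3 higher and 2 lower in Aff3-/- cells. Ccr4, the receptor of Ccl17 and Ccl22, had 45.1 and 39.4 intensity units in Aff3-/- replicates 1 and 2, against 16.1 and 27.8 in Aff3+/- replicates 1 and 2, a log2 difference of 1.01 ± 0.26 (SE, 95% interval 0.31 to 1.70, limma unadjusted p = 0.0145). Both Aff3-/- arrays lay above both Aff3+/- ones for Ccr4, as for 8.45% of all features. The eosinophil receptor Ccr3 was not well above background on either Aff3+/- array and was at least 1.79-fold brighter in Aff3-/- cells, where its signals were 8.26 and 16.5 (6.67 and 5.86 in Aff3+/- cells). That bound sets the Aff3-/- mean against the lowest signal well above background on each Aff3+/- array, or the probe's own where higher, and makes no allowance for sampling error. Ccr3 passed the filter only through its Aff3-/- arrays, which favoured its place among the 3 higher receptors. Cxcr3, the receptor of Cxcl10, differed by -0.03 ± 0.29. The scavenging receptor Ackr2 was -0.60 ± 0.42 and lower on replicate 2 in both genotypes, and its other probe did not pass the filter. Ccr1, Cxcr1 and Cxcr2 were not well above background on any array.

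Other chemokine ligands gave 11 tested genes of 32 listed, 5 higher and 6 lower in Aff3-/- cells with a median of -0.01 (0.02 with median centring), and none passed in limma (adjusted p = 1.00 for each). The T cell attractant Ccl5 had 41477 and 38984 intensity units in Aff3-/- replicates 1 and 2, against 49813 and 43870 in Aff3+/- replicates 1 and 2, a log2 difference of -0.21 ± 0.14 (SE) without overlap. No overlap, in either direction, was found for 19.6% of all features. Ccl9 was 0.99 ± 0.57 without overlap, and its signals of 37.2 and 11.1 in Aff3-/- cells, against 10.3 and 10.4 in Aff3+/- cells, rest on 1 bright array, Aff3-/- replicate 1, as for Ccl22. Cxcl9, another Cxcr3 ligand beside Cxcl10 in the genome, was 0.32 ± 0.20 without overlap. Its signals were 24.5 and 16.9 in Aff3-/- cells, against 16.0 and 16.8 in Aff3+/- cells, so this too rests on Aff3-/- replicate 1. The other Cxcl9 probe did not pass the filter. On the replicate numbers Cxcl9 differed by -0.50 in Aff3-/- cells and -0.02 in Aff3+/- cells, unlike the 1.80 and 0.73 of Cxcl10. Cx3cl1, which lies between Ccl22 and Ccl17, was 0.11 ± 0.31. Ccl6 (-0.22 ± 0.26), Ccl12 (-0.24 ± 0.21), Ccl19 (0.02 ± 0.17), Ccl25 (-0.04 ± 0.11), Ccl27a (-0.20 ± 0.27) and Cxcl16 (-0.0097 ± 0.15) overlapped between genotypes, and probes of Ccl19 and Ccl27a may also read near-identical gene copies. The platelet chemokine Pf4 was not well above background on either Aff3+/- array and was at least 1.68-fold brighter in Aff3-/- cells (16.7 and 7.18, against 1.43 and 4.28 intensity units). Pf4 likewise passed the filter only through its Aff3-/- arrays, which favoured its place among the 5 higher ligands. Cxcl2, Cxcl3 and Cxcl5, relatives of Cxcl1 that also bind Cxcr2, were not well above background on any array.

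**Figure D5:**
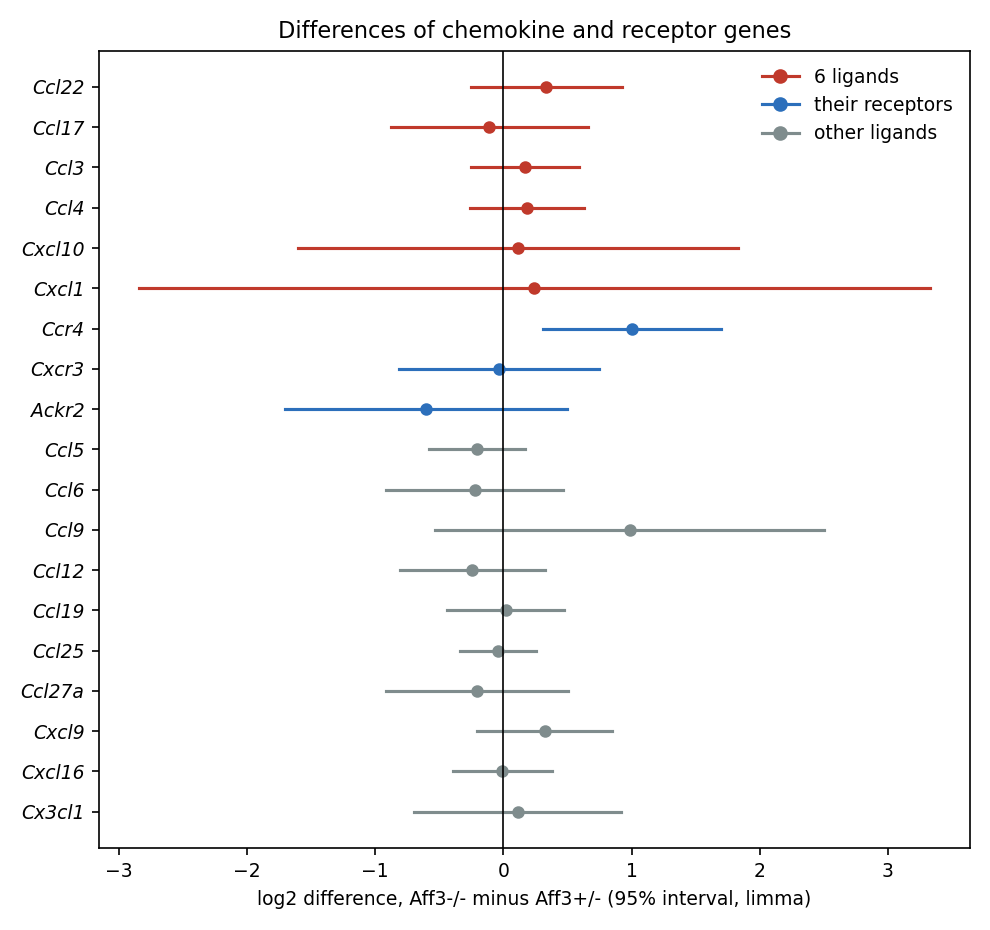
Log2 difference of Aff3-/- minus Aff3+/- cells with its 95% interval from limma for the 6 chemokine ligand genes (red), 3 of their receptors (blue) and other chemokine ligands (grey) well above background on all 4 arrays. The intervals of all 6 ligands include 0 and are widest for Cxcl10 (-1.61 to 1.83) and Cxcl1 (-2.85 to 3.33).

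Of the signalling genes upstream of the chemokines none passed in limma (adjusted p = 1.00 for each). All 14 NF-kB subunit and inhibitor genes were tested, 11 higher and 3 lower in Aff3-/- cells with a median of 0.05, and Nfkb2 (0.23 ± 0.11, SE) and Nfkbiz (-0.19 ± 0.15) had the smallest p. For the 12 LPS receptor and adaptor genes the median was -0.02 (0.0078 with median centring) with 3 higher and 9 lower, led by the adaptors Ticam2 (0.30 ± 0.17) and Tirap (-0.16 ± 0.15). The IL-4 receptor and STAT6 route had 4 of 7 genes higher, 3 higher and 1 lower without overlap (19.6% of all features showed none), and a median of 0.09, which was -0.01 when all probes of a gene were averaged and -0.11 in the deposited values. In it the receptor chain Il4ra was 0.45 ± 0.18 (0.09 for its other probe) and the STAT-induced inhibitor Cish 0.50 ± 0.35. Interferon factors had 3 higher and 8 lower and a median of -0.03, near 0 with normexp (Stat2 -0.11 ± 0.11, Ifnar1 0.09 ± 0.11). Genes of chemokine mRNA decay and stability had 5 of 9 higher and a median of 0.05, which was -0.02 in the deposited values (Auh 0.18 ± 0.15, Zfp36l1 0.07 ± 0.11). Of the proteases that trim chemokines 3 of 5 were tested, with Dpp4 at -0.15 ± 0.32 and Adam17 at -0.14 ± 0.12. Leaving out 1 array turned the sign of the median of the NF-kB, LPS, interferon and processing lists.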

How the data were processed

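Cy3-labelled cRNA of each sample was hybridised to an Agilent mouse array, per the labels' protocols. The deposited scanner files hold intensity values made with Agilent Feature Extraction 10.7.1.1, background-subtracted and detrended but not normalized between arrays, per the file headers. The submitters' processing notes name the same software. A second deposited table holds log2 values centred per probe by the authors, with an unknown scaling per array, and lists 3 of the 6 chemokine genes (Ccl3, Cxcl10 and Cxcl1). The array design cites mm9, and symbols came from a RefSeq table of GRCm38.p6, which named 26581 of 39429 probes by accession and 6 by synonym.

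From these, log2 processed signal minus each array's 75th percentile was computed without 1377 control spots of 44397 and without outlier-flagged spots. Kept probes were well above background on each array of either genotype or both (a probe with several spots, on at least 50% of them), and a gene's probe of highest mean signal stood for it. limma 3.58.1 in R 4.3.3 (lmFit, eBayes, no term for replicate number) tested Aff3-/- minus Aff3+/- over 20633 features, two-sided, with Benjamini-Hochberg adjustment at 0.05. Values after ± are standard errors unless named as SD. The fit was tested on simulated data. Pearson's r between arrays over features was 0.995 to 0.998 and no 2 arrays were identical.

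The members and lists were chosen with earlier results of these data known. The text names the 6 members, their receptors and other ligands well above background, the 2 genes of smallest p in each pathway list, and, for members whose arrays span at least 1 (log2), the 2 genes of most like pattern. Ifnb1 and Irf3 were named after their values were seen. Some genes of the lists are not reported here. Only 2 arrays per genotype limit the precision. Alternatives changed the filter, scaling, background correction, variance model or probe rule, used the deposited log2 values, added the replicate block or left out an array. normexp used median spot and background signals with an offset of 50. A slide block was not run, because 1 slide held all 4 arrays.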

Additional observations from a re-analysis of the deposited data

How the results depend on the processing

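None of the 6 chemokine genes passed the adjusted threshold under any of 14 alternatives, and no alternative passed any feature. The lowest adjusted p of the 6 genes was 0.785, for Ccl4 with the replicate block. Ccl22 and Ccl4 stayed above 0 in all 13 alternatives that gave them a value. Cxcl1 turned to -0.049 with normexp background correction. Leaving out 1 array gave log2 differences from 0.04 to 0.63 for Ccl22, -0.47 to 0.25 for Ccl17, -0.0071 to 0.34 for Ccl3, 0.02 to 0.35 for Ccl4, -0.79 to 1.01 for Cxcl10 and -1.25 to 1.73 for Cxcl1. The number of features without overlap was then 9392 to 15093, against 4043 over all arrays, because a lone array meets that rule more easily. With the replicate number as a block the count of passing features stayed at 0 (smallest unadjusted p among the 6 genes 0.0979, for Ccl4, and SE 0.29 for Cxcl10 and 0.30 for Cxcl1, against 0.65 and 1.17 without the block). Deviations from the genotype means of same-numbered arrays correlated at 0.557 over features, but the labels do not tie a number to a shared source. The count of features at least 1 (log2) higher on replicate 2 in both genotypes was 23, against 2 with normexp, 142 when the authors' deposited log2 values were used and 192 with no filter. Cxcl1's mean replicate difference was 2.43, and 0.67 with normexp, whose offset compresses dim signals. By scanner error, the signals of Ccl17, and of Cxcl1 on both replicate 1 arrays, near the detection limit, were the least precise of the 6 genes. The genotype difference itself had the largest SE for Cxcl1 and Cxcl10.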

Other observations

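Beyond the chemokine genes, a small set of other genes differed by at least 1 (log2) between the replicate numbers in both genotypes. Without that cut, 35.6% of all features were higher and 39.8% lower on replicate 2 in both genotypes. The set was seen after the values were examined and is given here as values only. Of the 23 features at least 1 (log2) higher on replicate 2 in both genotypes, 14 carry a symbol. Among them Vgf, a neuropeptide precursor, differed by 2.89 in Aff3-/- cells and 2.52 in Aff3+/- cells, Fosl2, an AP-1 subunit, by 1.78 and 1.17, and Ptgs2 by 2.37 and 1.37. At least 1 lower in both were 29 features (0.141%), 23 of them with a symbol. These include the early growth response genes Egr1 (-1.53 in Aff3-/- cells and -2.22 in Aff3+/- cells) and Egr2 (-1.24 and -1.24). Fosb, like Fosl2 an AP-1 subunit, was also lower (-1.36 and -1.33). So were the stress-response genes Ddit3 (-1.67 and -1.09), Trib3 (-1.50 and -1.24) and Chac1 (-1.22 and -1.27).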
